A study of Mus musculus with 18 samples.

Results

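*Dbp*, *Tef*, *Hlf*, *Nfil3*, *Nr1d1*, *Nr1d2*, *Rora* and *Bhlhe41* encode transcription factors on the output side of the daily clock. These 8 genes, of 13979 with a named promoter peak, were taken by symbol from a ChIP-seq table of mouse ventricles, and were selected on the Pol II (RNA polymerase II) signal that clock genes had in *Mettl3* KO against WT in the same data. They carried 23 of the 38260 promoter-annotated regions in a set of 101256 called peaks, and 1 main peak per gene, the one with the highest mean Pol II signal, is described in full. The adult hearts were WT, *Trdn-as* KO or *Mettl3* KO. The labels give the last as Mettl3lox/lox:alphaMHC-MerCreMerpos, a line in which tamoxifen activates a Cre under a cardiomyocyte promoter, so other heart cells are not targeted for loss of the m6A methyltransferase METTL3. In *Trdn-as* KO, transcription of the antisense RNA of the triadin gene stops early. The methods state that mice of this line and Mettl3lox/lox control mice were injected with tamoxifen. The controls here are labelled WT, so whether the WT mice carried the loxP alleles or were given tamoxifen is not settled by the labels. The MerCreMer transgene and the loss of METTL3, and possibly tamoxifen, come together in 1 genotype and cannot be told apart here. Chromatin was prepared from the ventricles of 2 hearts, with 2 Pol II libraries, 2 CTCF libraries and 1 IgG library for each genotype. The time of day at which hearts were taken is not given in the sources used here, so genotype and time of collection cannot be told apart.

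In the clock, CLOCK or NPAS2 with BMAL1 (*Arntl*) drives transcription through E-boxes, and PER, CRY and the DEC repressors oppose it. DBP, TEF and HLF, the PAR bZIP factors, activate genes through D-boxes, and NFIL3 (E4BP4) represses through the same element. REV-ERBα (*Nr1d1*) and REV-ERBβ (*Nr1d2*) repress, and RORα (*Rora*) activates, through RORE elements, which are found in *Arntl*, *Clock*, *Npas2*, *Cry1* and *Nfil3*.

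The promoters of *Dbp* and *Hlf*, the genes with the largest fall of Pol II in *Mettl3* KO, and 1 promoter for each other gene with a clock motif are shown here, as 300 bases around the start of the gene on its own strand, from RefSeq annotation on GRCm38.p6. All 8 genes were matched, with 2 starts for *Tef*. Capitals mark a match, on either strand, to the E-box CACGTG, its variant CACGTT, the D-boxes TTATGTAA or TTACGTAA, or the RORE cores TAGGTCA or TGGGTCA. The *Dbp* (chr7:45704997-45705296, plus strand) and *Hlf* (chr11:90390868-90391167, minus) promoters had no match, the downstream *Tef* start (chr15:81811164-81811463, plus) and *Bhlhe41* (chr6:145865371-145865670, minus) had an E-box, *Nr1d1* (chr11:98775328-98775627, minus) had the E-box variant, and *Nfil3* (chr13:52980990-52981289, minus) had a RORE core.
Dbp: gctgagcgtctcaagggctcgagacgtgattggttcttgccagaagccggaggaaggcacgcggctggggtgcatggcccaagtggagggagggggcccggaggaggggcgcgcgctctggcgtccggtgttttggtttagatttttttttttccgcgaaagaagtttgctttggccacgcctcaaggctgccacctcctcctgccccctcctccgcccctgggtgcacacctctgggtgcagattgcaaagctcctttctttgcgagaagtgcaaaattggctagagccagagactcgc
Tef: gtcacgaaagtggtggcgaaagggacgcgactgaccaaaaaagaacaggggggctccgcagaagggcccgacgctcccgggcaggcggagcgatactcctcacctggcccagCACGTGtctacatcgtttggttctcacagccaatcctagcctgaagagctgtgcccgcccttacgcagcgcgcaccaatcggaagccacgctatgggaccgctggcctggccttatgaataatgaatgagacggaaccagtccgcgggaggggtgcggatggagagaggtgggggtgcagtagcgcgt
Hlf: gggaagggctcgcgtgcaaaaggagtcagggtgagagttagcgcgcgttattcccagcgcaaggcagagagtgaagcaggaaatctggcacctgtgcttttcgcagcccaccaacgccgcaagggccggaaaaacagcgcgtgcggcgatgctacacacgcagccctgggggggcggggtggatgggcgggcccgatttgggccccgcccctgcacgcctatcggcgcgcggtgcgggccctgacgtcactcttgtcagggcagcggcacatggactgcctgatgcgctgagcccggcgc
Nfil3: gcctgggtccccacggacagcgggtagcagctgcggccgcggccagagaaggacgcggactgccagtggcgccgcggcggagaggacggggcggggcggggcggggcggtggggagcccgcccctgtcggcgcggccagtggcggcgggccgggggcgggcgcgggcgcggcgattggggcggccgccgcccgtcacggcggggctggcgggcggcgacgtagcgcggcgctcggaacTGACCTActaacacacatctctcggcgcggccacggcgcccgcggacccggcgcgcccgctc
Nr1d1: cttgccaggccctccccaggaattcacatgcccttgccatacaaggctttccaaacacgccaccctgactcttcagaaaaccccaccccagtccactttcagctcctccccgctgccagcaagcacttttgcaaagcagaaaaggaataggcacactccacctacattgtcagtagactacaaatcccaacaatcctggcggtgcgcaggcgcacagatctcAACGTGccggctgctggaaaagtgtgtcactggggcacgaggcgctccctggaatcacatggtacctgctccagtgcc
Bhlhe41: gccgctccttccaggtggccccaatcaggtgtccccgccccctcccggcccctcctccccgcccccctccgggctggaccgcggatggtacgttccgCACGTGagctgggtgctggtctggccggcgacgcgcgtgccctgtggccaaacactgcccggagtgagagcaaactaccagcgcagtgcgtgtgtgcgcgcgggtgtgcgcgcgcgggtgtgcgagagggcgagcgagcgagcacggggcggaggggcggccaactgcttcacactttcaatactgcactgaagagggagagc

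CACGTG was present in 7.15% of the 32851 RefSeq promoters of the same length, CACGTT in 4.68%, TAGGTCA in 2.61%, TGGGTCA in 3.98%, TTATGTAA in 0.938% and TTACGTAA in 0.119%. The upstream *Tef* promoter also held an E-box. The match began 12 bases before the start in *Nfil3*, 28 in *Nr1d1*, 138 in the *Tef* promoter shown and 153 in *Bhlhe41*. None of these motifs was in the windows of *Nr1d2* and *Rora*.

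All values are DESeq2-normalized signal, rounded to whole numbers by the authors. Between 1987531 and 4953526 reads per Pol II library lay in peaks, 18.6% to 42.6% of the uniquely mapped reads, and the second *Trdn-as* KO library was lowest on both counts. The targeted *Trdn-as* promoter had 530 and 595 for WT, 140 and 100 for *Trdn-as* KO, and 503 and 491 for *Mettl3* KO, whereas Pol II at the *Mettl3* promoter (177 and 202 in WT, 240 and 235 in *Mettl3* KO) is no check of a deletion inside that gene. Summed over 6 peaks, Y-linked signal was 0 in both *Trdn-as* KO libraries and 223 to 326 in the others, so sex and *Trdn-as* KO cannot be told apart. Cardiomyocyte markers were present in all libraries, with summed main promoter signal of 23586 and 25281 for WT, 23921 and 18427 for *Trdn-as* KO, and 24394 and 24662 for *Mettl3* KO. Fibroblast markers (4 of 4 with a peak) summed to 564 and 580 for WT, 838 and 564 for *Trdn-as* KO, and 1189 and 1169 for *Mettl3* KO, and limma called 3 of 4 higher in *Mettl3* KO against WT, as it did 0.712% of all peaks. Endothelial markers were at 701 to 746 in WT and 709 to 731 in *Mettl3* KO, and macrophage markers at 140 to 151 and 110 to 141, with *Pecam1* and *Csf1r* lacking a promoter peak. The part of these cells in the results was not tested, and in ventricle chromatin fewer cells of a type and less Pol II per cell cannot be told apart.

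*Dbp* and *Hlf* had the strongest loss of promoter Pol II in *Mettl3* KO hearts among the 8 genes, *Tef* an intermediate one, and *Nfil3* a gain. *Nr1d1*, *Nr1d2*, *Rora* and *Bhlhe41* had *Mettl3* KO means from 77.5% (*Rora*) to 87.2% (*Nr1d1*) of WT for 3 of them and above WT for *Nr1d2*. Since results of *Mettl3* KO against WT were in view when the genes were picked, these differences are a description and carry no p.

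The main peak of *Dbp* (ENSMUSG00000059824, chr7:45353320-45363398 in GRCm39) covers the whole gene. Its signal was 3291 and 3501 for WT, 3267 and 2482 for *Trdn-as* KO, and 1710 and 1650 for *Mettl3* KO. Both *Mettl3* KO libraries were far below the other 4, and the WT and *Trdn-as* KO ranges were separated by less than the gap between the WT libraries. The mean fell from 3396 ± 148 in WT to 1680 ± 42.4 in *Mettl3* KO (SD, n = 2), 49.5% of WT, with a log2 fold change of -1.01 (SE 0.11). Scaled to the uniquely mapped reads (RPM), the same peak had 297 in WT and 133 in *Mettl3* KO, against IgG levels of 11.0 and 10.4. The peak also covers 4508 bases of *Sphk2* on the other strand and 787 bases of *Car11*, whose reads cannot be told apart from those of *Dbp*.

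*Tef* is another activator of D-box genes. Its promoter peak (ENSMUSG00000022389, chr15:81686155-81687924) had 434 and 415 for WT, 382 and 307 for *Trdn-as* KO, and 264 and 298 for *Mettl3* KO. The 3 genotypes did not overlap, with *Trdn-as* KO in the middle. The mean was 424.5 ± 13.4 in WT and 281 ± 24.0 in *Mettl3* KO (SD, n = 2), a log2 fold change of -0.60 (SE 0.17).

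*Hlf*, the PAR bZIP gene with the lowest promoter signal, had peak signal of 226 and 228 for WT, 205 and 143 for *Trdn-as* KO, and 88 and 104 for *Mettl3* KO (ENSMUSG00000003949, chr11:90280355-90282397). The order was the same as for *Tef*, without overlap. Its *Mettl3* KO mean of 96 ± 11.3 was 42.3% of the WT mean of 227 ± 1.41 (SD, n = 2), and the log2 fold change was -1.24 (SE 0.22).

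*Nfil3*, whose product competes with the PAR bZIP factors for D-boxes, moved the other way. Its peak (ENSMUSG00000056749, chr13:53132212-53137606) had 663 and 678 for WT, 898 and 686 for *Trdn-as* KO, and 865 and 893 for *Mettl3* KO. Both *Mettl3* KO libraries were above both WT libraries, and the *Trdn-as* KO libraries spanned most of that distance. The mean was 670.5 ± 10.6 in WT and 879 ± 19.8 in *Mettl3* KO (SD, n = 2), 131% of WT, with a log2 fold change of 0.39 (SE 0.14).

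The REV-ERB genes differed little. *Nr1d1* (ENSMUSG00000020889, chr11:98657200-98668832) had 2958 and 3073 for WT, 3011 and 2567 for *Trdn-as* KO, and 2666 and 2594 for *Mettl3* KO. Its log2 fold change against WT was -0.20 (SE 0.10). This peak spans the gene and 2633 bases of the convergent gene *Thra*, so the split of reads is uncertain. *Nr1d2* (ENSMUSG00000021775, chr14:4229988-4231847) had 561 and 551 for WT, 627 and 521 for *Trdn-as* KO, and 605 and 608 for *Mettl3* KO, with a log2 fold change of 0.13 (SE 0.15). *Mettl3* KO lay below WT at *Nr1d1* and above it at *Nr1d2*, and *Trdn-as* KO overlapped WT at both.

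*Rora*, the activator that shares RORE elements with the REV-ERBs, had 210 and 172 for WT, 174 and 114 for *Trdn-as* KO, and 146 and 150 for *Mettl3* KO (ENSMUSG00000032238, chr9:68560418-68563202). The WT libraries spread widely, and the log2 fold change in *Mettl3* KO was -0.36 (SE 0.22), from -0.50 to -0.22 over the fits without 1 library. *Bhlhe41*, which encodes the E-box repressor DEC2, had 1050 and 1025 for WT, 1109 and 894 for *Trdn-as* KO, and 928 and 869 for *Mettl3* KO (ENSMUSG00000030256, chr6:145808290-145812810), with a log2 fold change of -0.21 (SE 0.13). At both genes *Mettl3* KO was below WT, and *Trdn-as* KO overlapped WT.

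**Figure D1:**
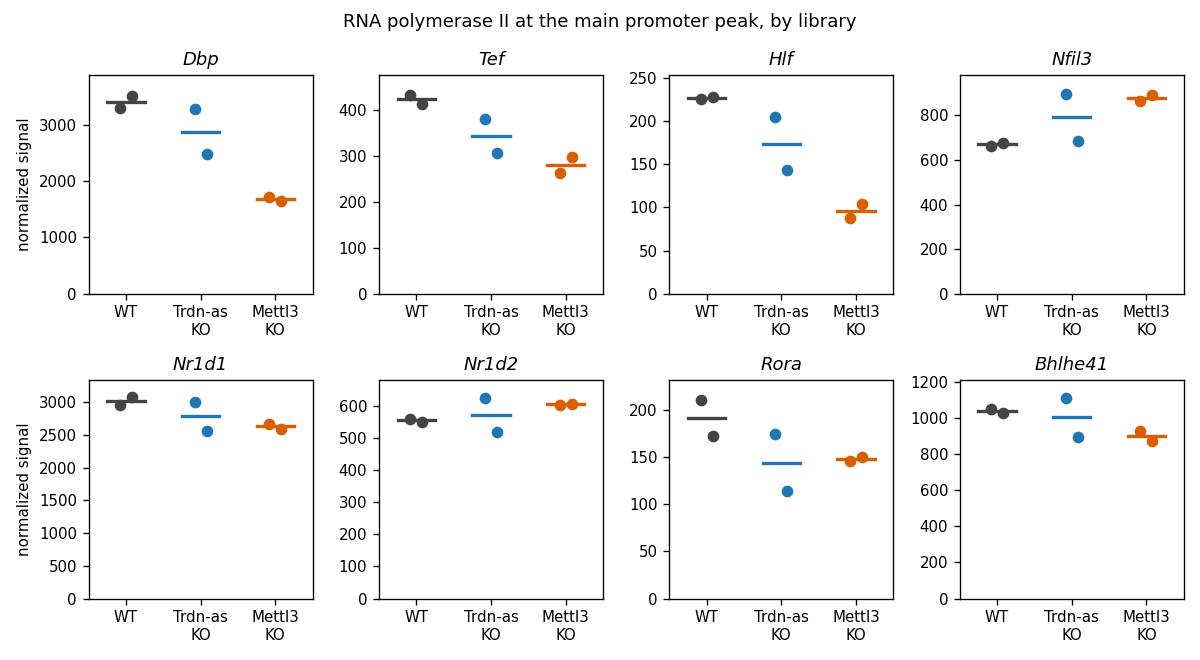
Normalized Pol II signal at the main promoter peak of each of the 8 genes in every library (points) with the mean of the 2 libraries per genotype (horizontal lines). *Mettl3* KO is lowest at *Dbp* (1710 and 1650 against 3291 and 3501 in WT) and *Hlf*, and *Nfil3* is higher in *Mettl3* KO than in WT.

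Compared per kb of peak, WT signal was highest at *Dbp* (327 and 347 per kb), followed by *Nr1d2* (302 and 296), *Nr1d1* (254 and 264), *Tef* (245 and 234), *Bhlhe41* (232 and 227), *Nfil3* (123 and 126), *Hlf* (111 and 112) and *Rora* (75.4 and 61.8). With 2 libraries, no pair of neighbours in this order overlapped in WT. In *Mettl3* KO, *Nr1d2* was highest with 325 and 327 per kb, and *Dbp* (170 and 164), *Nfil3* (160 and 166) and *Tef* (149 and 168) overlapped. Against IgG, WT Pol II was enriched 27.1-fold at *Dbp*, 21.1-fold at *Nr1d1*, 19.3-fold at *Tef*, 16.3-fold at *Bhlhe41*, 14.6-fold at *Nr1d2*, 9.09-fold at *Nfil3*, 8.46-fold at *Hlf* and 5.40-fold at *Rora*, in RPM. The other promoter peaks of these genes were low, at most 45 in WT.

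Of the 19 promoter peaks with enough signal to be tested, limma called 2 lower in *Mettl3* KO against WT, those of *Dbp* and *Hlf*, where 0.482% of all 52655 tested peaks were called lower. Nothing is read from this count, as the genes were chosen with that contrast in view. Without the first or the second *Trdn-as* KO library, which enter only the shared estimate of the spread, 6 and 7 of the 19 were called (1 of them higher in each case), but so were 8.65% and 8.84% of all peaks, and without any 1 of the WT or *Mettl3* KO libraries 0 of the 19 were. At 6 of the 8 main peaks WT and *Mettl3* KO were separated with the knockout lower, and at *Nfil3* and *Nr1d2* with it higher, against 19.5% and 31.2% of all tested peaks. The median log2 fold change of the 8 main peaks was -0.28, and that of all tested peaks was 0.08.

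The *Trdn-as* KO libraries were set against the same WT libraries as in the comparison above. The genes were chosen with those WT values in view, so the differences and p-values below are not independent of that choice. They are given as a description. In either direction, 0 of 19 peaks passed by limma, while 0.304% of all peaks did, and 1, *Dbp*, had an unadjusted p below the threshold, as had 7.7% of all peaks. The log2 fold change was -0.25 at *Dbp* (limma adjusted p = 0.55), -0.31 at *Tef* (0.72), -0.40 at *Hlf* (0.70), -0.43 at *Rora* (0.67) and 0.23 at *Nfil3* (0.76). Those of *Nr1d1*, *Nr1d2* and *Bhlhe41* were -0.12, 0.04 and -0.06. Both *Trdn-as* KO libraries were below both WT libraries at *Dbp*, *Tef* and *Hlf* and above them at *Nfil3*, where 19.1% and 12.9% of all tested peaks separated in these directions. The median was -0.19 for the 8 genes and -0.07 for all peaks.

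The *Trdn-as* KO libraries differed from each other at each of the 8 genes, and the second was lower throughout. Without the first, the shallow second library stands alone and is assumed to vary like the other genotypes, and 3.62% of all peaks were called. The limma calls then included *Dbp* (log2 fold change -0.45), *Tef* (-0.47), *Nr1d1* (-0.23) and *Rora* (-0.73), all lower, with the median of all peaks at -0.19. Without the second, the log2 fold changes of *Dbp*, *Tef* and *Hlf* were -0.06, -0.15 and -0.15, that of *Rora* was -0.13, and none of the 19 peaks passed. *Nfil3* was at 0.03 without the first and 0.42 without the second. When libraries were scaled by uniquely mapped reads, the median of all peaks moved to -0.65, and changes relative to the median were nearly the same as before. Relative to it, *Hlf* was at -0.33 on the deposited scale and -0.35 by mapped reads, and *Nfil3* at 0.30 and 0.28.

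Between the knockouts, which share the *Mettl3* KO libraries with the first comparison, 2 of 19 promoter peaks were called lower in *Mettl3* KO, where 0.355% of all peaks were. They were *Dbp*, with a log2 fold change of -0.76 (SE 0.11), and *Hlf*, with -0.83 (SE 0.22). Scaled by uniquely mapped reads they were -0.30 and -0.38, with the median of all peaks at 0.60 in place of 0.16. Nothing is read from this count either, since it reuses the *Mettl3* KO libraries. Without any 1 of the WT or *Mettl3* KO libraries neither was called. Over the fits without 1 library, the log2 fold change ran from -0.96 to -0.56 at *Dbp* and from -1.09 to -0.57 at *Hlf*. The change was -0.29 at *Tef* (-0.44 to -0.13 over the fits without 1 library), 0.16 at *Nfil3* and between -0.15 and 0.09 at the other 4 genes. The median was -0.11 (all peaks 0.16). Relative to the median of all peaks, *Nfil3* was at 0.01 and *Rora* at -0.09.

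**Figure D2:**
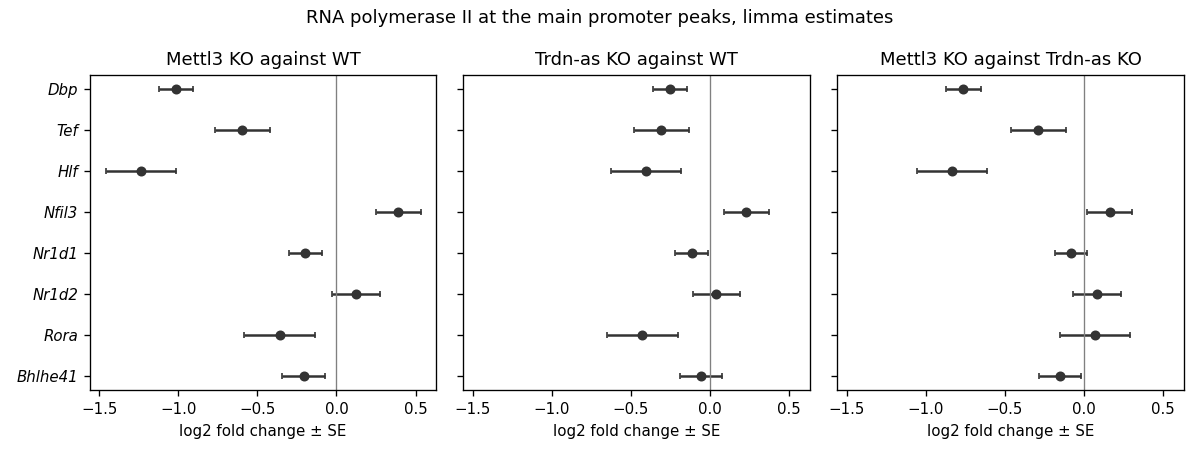
Log2 fold change of Pol II signal at the main promoter peaks, with standard errors, for the 3 comparisons between genotypes. *Dbp* and *Hlf* have the most negative values in *Mettl3* KO against WT (-1.01 and -1.24), and *Nfil3* is positive in all 3 comparisons, though its value between the knockouts, 0.16, equals the median of all peaks at this precision.

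A ratio within a library does not depend on the library's scaling. The *Dbp* to *Nfil3* ratio of Pol II signal was 4.96 and 5.16 for WT, 3.64 and 3.62 for *Trdn-as* KO, and 1.98 and 1.85 for *Mettl3* KO. The *Tef* to *Nfil3* ratio was 0.655 and 0.612, 0.425 and 0.448, and 0.305 and 0.334 in the same order. The *Hlf* to *Nfil3* ratio was 0.341 and 0.336, 0.228 and 0.208, and 0.102 and 0.116. For all 3 PAR bZIP genes the genotypes fell in the order WT, *Trdn-as* KO, *Mettl3* KO without overlap, and the *Trdn-as* KO libraries, which differed in signal, were close in these ratios. The *Nr1d1* ratio (4.46 and 4.53, 3.35 and 3.74, and 3.08 and 2.90) and the *Bhlhe41* ratio (1.58 and 1.51, 1.23 and 1.30, 1.07 and 0.973) had the same order. Those of *Nr1d2* (0.698 and 0.759 in *Trdn-as* KO, 0.699 and 0.681 in *Mettl3* KO) and *Rora* (0.194 and 0.166, 0.169 and 0.168) overlapped between the knockouts. All of these ratios are divided by *Nfil3*, whose signal was higher in both knockouts than in WT, so its rise enters every step down. By signal alone, *Trdn-as* KO overlapped WT at *Nr1d1* and *Bhlhe41*. The share of all peaks with such an order was not computed. The ratios show unequal change of the paired genes and use the contrast by which the genes were chosen, so no test is given.

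Peaks without a promoter annotation lay inside 5 of the genes, 82 in all, of which 62 were in *Rora* and 12 in *Hlf*. The strongest was in *Tef* (chr15:81693651-81697685), 7029 to 11063 bases from the gene start. In GRCm38, where *Tef* has the same length of 24443 bases, the downstream RefSeq start shown above lies 8993 bases from the gene start, inside that stretch. Its Pol II signal was 1359 and 1275 for WT, 1218 and 979 for *Trdn-as* KO, and 850 and 964 for *Mettl3* KO, higher than at the annotated promoter peak. *Mettl3* KO was below WT, with a log2 fold change of -0.54 (SE 0.13), close to the -0.60 of the promoter peak. In *Trdn-as* KO it was -0.27 (SE 0.13, limma adjusted p = 0.63). In *Rora* the strongest inner peak (chr9:69196620-69198259) had 319 and 265 for WT, 324 and 238 for *Trdn-as* KO, and 282 and 253 for *Mettl3* KO, and the genotypes overlapped.

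Of 31 inner peaks tested, limma called 0 in *Trdn-as* KO against WT, with 3 at an unadjusted p below the threshold, as were 7.7% of all tested peaks. In *Mettl3* KO against WT, from which nothing is read, it called the *Tef* peak only (1.19% of all peaks were called), and this call was not recomputed under the alternatives. The summed signal of the tested inner peaks (2 of 4 in *Tef*, 8 of 12 in *Hlf*, 19 of 62 in *Rora*), divided by that of all promoter peaks of the gene in the same library, was 2.75 and 2.53 for WT, 2.65 and 2.83 for *Trdn-as* KO, and 2.95 and 2.81 for *Mettl3* KO for *Tef*. For *Hlf* it was 1.13 and 1.31, 1.27 and 1.59, and 2.05 and 1.87. For *Rora* it was 3.38 and 3.90, 4.29 and 5.83, and 4.23 and 4.11. The *Hlf* ratio was higher in both *Mettl3* KO libraries than in the other 4, a description, since the promoter signal it is divided by belongs to the contrast in view when the genes were chosen. In *Trdn-as* KO against WT, two-sided exact permutation tests gave p = 0.67 for *Tef* and *Hlf* and 0.33 for *Rora*, the smallest that 2 against 2 libraries allow. These tests also use the WT promoter values that were in view when the genes were chosen. With 1 tested inner peak each, *Nr1d2* and *Nfil3* had little inner signal. The *Nr1d2* ratio was lower in both knockouts, at 0.038 and 0.049 for WT, 0.023 and 0.015 for *Trdn-as* KO, and 0.025 and 0.025 for *Mettl3* KO (exact permutation p = 0.33 for *Trdn-as* KO against WT), and that of *Nfil3* overlapped (p = 0.67).

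CTCF, a DNA-binding architectural protein immunoprecipitated as the positive control of the assay, gives a measure at the same peaks that did not enter the choice of genes. Over the 8 main peaks the WT CTCF signal was 4.27 times that of IgG in RPM. It was 15.5 times that of IgG at the nearest strong CTCF site of each gene, found 27.3 to 116 kb away. Strong sites had a mean CTCF signal of at least 50 and a mean Pol II signal under 25. This choice raises their ratio, and weaker CTCF peaks can lie nearer. At *Dbp*, CTCF signal was 297 and 296 for WT, 312 and 314 for *Trdn-as* KO, and 227 and 240 for *Mettl3* KO. The *Mettl3* KO CTCF libraries were below all others. In the 1 IgG library per genotype this peak had 463 for WT, 538 for *Trdn-as* KO and 359 for *Mettl3* KO, so IgG was lowest in *Mettl3* KO too. CTCF was 3.31, 2.34 and 2.78 times IgG in RPM in the same order, and the part of background in the fall was not tested. The log2 fold change of -0.34 against WT (SE 0.06, limma adjusted p = 0.040) and -0.42 against *Trdn-as* KO (SE 0.06, adjusted p = 0.0017) passed. It was 1 of 12 tested peaks of the 8 genes lower in *Mettl3* KO against WT, where 0.0857% of all 60649 CTCF peaks were. The call was lost in 11 of 13 alternatives, among them each that left out a library, with adjusted p up to 0.70 and log2 fold changes from -0.38 to -0.28. The call between the knockouts was lost in 10 of 13, with log2 fold changes from -0.46 to -0.32.

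CTCF at *Hlf* was 76 and 70 for WT, 76 and 88 for *Trdn-as* KO, and 59 and 55 for *Mettl3* KO. The *Mettl3* KO CTCF libraries were again lowest, while IgG had 99 for WT, 46 for *Trdn-as* KO and 78 for *Mettl3* KO. The CTCF log2 fold change was -0.35 against WT (SE 0.12, limma adjusted p = 0.18) and -0.51 against *Trdn-as* KO (SE 0.12, adjusted p = 0.042). With *Dbp*, *Hlf* made 2 of 12 peaks lower between the knockouts (0.948% of all). The *Hlf* call was lost in 11 of 13 alternatives, with log2 fold changes from -0.62 to -0.41. *Nr1d2* was the main peak with the largest CTCF increase, from 91 and 103 in WT to 129 and 123 in *Mettl3* KO, which did not pass (0.38, SE 0.11, adjusted p = 0.11). Limma called 0 of 12 peaks in *Trdn-as* KO against WT, with 1 at an unadjusted p below the threshold, and of all peaks 0.587% were called and 10.2% had such a p. The median CTCF log2 fold change of the 8 main peaks was -0.14 for *Mettl3* KO and 0.08 for *Trdn-as* KO, with all peaks at -0.06 and 0.04.

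The strong CTCF site nearest to *Dbp* (chr7:45388553-45389612, 34.6 kb away) had 52 and 55 for WT, 80 and 76 for *Trdn-as* KO, and 54 and 54 for *Mettl3* KO. *Trdn-as* KO was higher than both other genotypes. The log2 fold change was 0.01 in *Mettl3* KO against WT (limma adjusted p = 0.97), -0.52 in *Mettl3* KO against *Trdn-as* KO (SE 0.12, adjusted p = 0.036) and 0.54 in *Trdn-as* KO against WT (SE 0.12, adjusted p = 0.049). It was the only 1 of the 8 nearest strong sites called in the last comparison, where 0.587% of all peaks were, and it was not recomputed under the alternatives.

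**Figure D3:**
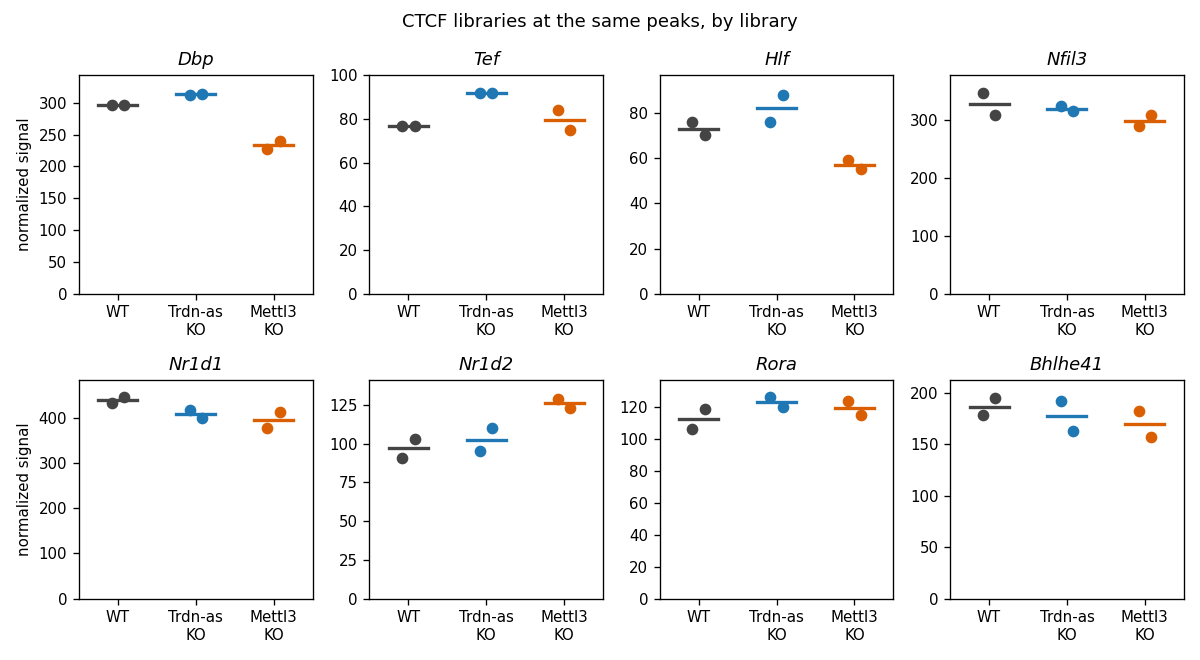
Normalized CTCF signal at the main promoter peak of each gene in every library (points) with the mean per genotype (horizontal lines). *Dbp* (227 and 240) and *Hlf* (59 and 55) are lowest in *Mettl3* KO, while *Nr1d2* is highest there.

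For context, 14 genes of the core loop and 11 other clock-controlled genes, listed with earlier results known, were read at their main promoter peaks. In *Mettl3* KO against WT, 2 of the 14 core genes rose and 4 fell by limma, where 0.712% of all peaks rose and 0.482% fell. As clock genes in this contrast were the basis of the choice, these values describe it and nothing is read from the counts. *Arntl*, which encodes BMAL1, had 204 and 185 for WT, 296 and 238 for *Trdn-as* KO, and 540 and 563 for *Mettl3* KO, and rose by 1.50 on the log2 scale in *Mettl3* KO. *Npas2*, a partner of BMAL1 in place of CLOCK, rose by 2.09. The genes that fell were *Ciart* (-1.05), *Per2* (-1.02), *Cry1* (-0.81) and *Per1* (-0.56). *Clock* (0.61) and *Per3* (-0.58) did not pass.

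*Per2* had 302 and 302 for WT, 242 and 200 for *Trdn-as* KO, and 165 and 133 for *Mettl3* KO, an order like that of *Tef* and *Hlf*. *Per1* had 2240 and 2322 for WT, 1812 and 1494 for *Trdn-as* KO, and 1531 and 1572 for *Mettl3* KO. It was the only 1 of 14 core genes called in *Trdn-as* KO against WT (-0.47, limma adjusted p = 0.042), where 0.304% of all peaks were. This call reuses the WT libraries and was not recomputed under the alternatives. Of the 14 core genes, 5 had an unadjusted p below the threshold, as had 7.7% of all peaks. Between the knockouts, *Npas2* (1.76), *Arntl* (1.05) and *Clock* (0.62) were higher in *Mettl3* KO, 3 of 14 where 1.15% of all peaks were, and none was called lower, with 9 of 14 at an unadjusted p below the threshold in either direction, as were 17.9% of all peaks. These counts reuse the *Mettl3* KO libraries, and nothing is read from them. Of the 11 other clock-controlled genes, *Pdk4*, a kinase that restrains glucose oxidation, rose in *Mettl3* KO against WT (0.89), and *Usp2*, a deubiquitinase, fell (-0.90). Of all peaks, 0.712% rose and 0.482% fell. Between the knockouts *Pdk4* was the only 1 of the 11 called (1.14, higher in *Mettl3* KO), where 1.15% of all peaks were called higher. Nothing is read from these counts either. In *Trdn-as* KO against WT, limma called 0 of the 11 (0.304% of all peaks), with 2 at an unadjusted p below the threshold (7.7% of all peaks).

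Among 9976 genes with a mean main peak signal of at least 50, the pattern over the 6 Pol II libraries most like that of *Dbp* was found at *Lbx2*, *Myh7*, *4921504E06Rik*, *2610028H24Rik* and *Nudt17*, with root-mean-square differences of centred log2 values from 0.080 to 0.12. *Myh7*, which encodes the slow myosin heavy chain, had 4531 and 4807 for WT, 4451 and 3581 for *Trdn-as* KO, and 2586 and 2617 for *Mettl3* KO. *Hlf* ranked 8 and *Tef* 43 in likeness to *Dbp*. The genes most like *Nfil3* were *B3gnt8*, *Dhodh*, *Furin*, *Prkaa2* and *Ptms* (0.021 to 0.032). This measure describes 6 libraries and carries no test.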

How the data were processed

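Pol II, CTCF and IgG ChIP-seq of mouse ventricles was read from 15 columns of 1 table. 18 samples are labelled, and the 3 inputs were not analysed here. The authors used Trimmomatic 0.39 for trimming, STAR 2.7.11b for alignment to GRCm39 and Picard 3.1.1 against duplicates, called peaks with MACS, merged them into 101256 regions and counted reads with featureCounts. The deposited values are signal normalized by the authors with DESeq2 1.36.0 and rounded to whole numbers, so no count test was run although the design foresaw one. Such size factors assume that most peaks do not change.

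Peaks that reached 10 in 2 or more of a target's 6 libraries were tested with limma 3.58.1 in R 4.3.3 on log2(value + 1), with a variance trend, all 3 genotypes in 1 model and Benjamini-Hochberg adjustment over all tested peaks at 0.05. Fold changes on this scale understate changes of low peaks. On simulated data with a log2 change of 1 at 200 peaks, 61% were recovered for Pol II and 90.5% for CTCF. The simulation used a single fixed spread for all libraries, not taken from the data, and changed no low peaks. These shares are therefore not the power of the real libraries. The worth of 1 read was estimated from the spacing of values (0.945 to 2.04 for Pol II, 0.284 to 0.458 for CTCF, 2.55 to 6.57 for IgG), and gave RPM with the uniquely mapped reads stated by the authors. It was ambiguous for 1 CTCF library of *Mettl3* KO. CTCF libraries held 6789560 to 10163797 reads in peaks and IgG libraries 273440 to 813009.

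The 8 genes and the lists were chosen with earlier results of these data known. From the list of core loop genes 1 gene is not reported here. The main peak of a gene is its promoter peak with the highest mean Pol II signal, and the 5 most alike genes had the smallest root-mean-square difference. All rows with a symbol were promoter peaks, so peaks without a symbol inside the gene bounds stood in for others. Promoters came from RefSeq on GRCm38.p6, another build than that of the peaks, and only distances were compared. Smooth muscle and adipocyte markers summed to 102 and 135, and 1109 and 1173, in WT, 151 and 84, and 1035 and 802, in *Trdn-as* KO, and 133 and 122, and 816 and 826, in *Mettl3* KO. Alternatives were other library sizes, median of ratios, no filter, a pseudocount of 4, a threshold of 0.01, only the compared genotypes, no variance trend, a replicate block, leaving out each replicate and, for single genes, the sum of all promoter peaks in place of the main peak. Those on single CTCF peaks, inner peaks and the inner ratio were chosen after seeing the data. Nothing says that replicate libraries came from separate hearts, so p-values measure the spread between libraries, which may be technical.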

Additional observations from a re-analysis of the deposited data

How the results depend on the processing

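Over the 14 alternatives for single genes, which hold the summed promoter peaks and not the threshold of 0.01, the log2 fold changes in *Mettl3* KO against WT, a description since the genes were chosen with it in view, ran from -1.15 to -0.97 at *Dbp* and from -1.38 to -1.12 at *Hlf*. Of the promoter peaks called for Pol II (2 in *Mettl3* KO against WT, 0 in *Trdn-as* KO against WT, 2 between the knockouts), the counts were 0, 0 and 0 on scaling by uniquely mapped reads, without the filter and without the variance trend. They were 7, 1 and 5 with median of ratios, when 4.51%, 0.613% and 2.76% of all peaks were called in place of 1.19%, 0.304% and 1.5%. They were 6, 0 and 1 with only the compared genotypes (9.23%, 0.0893% and 0.243% of all peaks), and 2, 0 and 1 at 0.01. Leaving out each replicate gave 0 to 7, 0 to 4 and 0 to 3. Of the CTCF calls (1, 0 and 2), 0, 0 and 0 were left with uniquely mapped reads, without the filter, without the variance trend, with only the compared genotypes and in every fit without a replicate, 2, 0 and 3 came with median of ratios (1.1%, 0.777% and 1.97% of all peaks), and 0, 0 and 1 at 0.01. For inner peaks in *Trdn-as* KO, leaving out replicates gave 0 to 1. The cause of these changes was not tested. Same-numbered libraries did not deviate together, so the numbers do not pair them. Correlations of their deviations ran from -0.0096 to 0.0059, except -0.24 for CTCF in WT and *Trdn-as* KO. There the first libraries deviated in opposite directions, and whether CTCF libraries share a batch across numbers was not tested. With a replicate block, the counts were 2, 0 and 2 for Pol II and 0, 0 and 1 for CTCF.

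Of single genes, these directions turned. With uniquely mapped reads, *Nr1d2* was -0.015 in *Mettl3* KO against WT, *Nfil3* -0.37 and *Nr1d2* -0.56 in *Trdn-as* KO against WT, and *Tef* 0.17, *Nr1d1* 0.38 and *Bhlhe41* 0.31 between the knockouts, where the median of all peaks moved to 0.60. With median of ratios, *Bhlhe41* was 0.013 in *Trdn-as* KO, and *Nfil3* -0.0094, *Nr1d2* -0.087 and *Rora* -0.10 between the knockouts. Leaving out 1 replicate at a time, *Nr1d2* ran from -0.094 to 0.17 and *Bhlhe41* from -0.21 to 0.096 in *Trdn-as* KO against WT. Between the knockouts, *Nfil3* ran from -0.031 to 0.36, *Nr1d1* from -0.20 to 0.035, *Nr1d2* from -0.048 to 0.22, *Rora* from -0.23 to 0.37 and *Bhlhe41* from -0.30 to 0.0065, each end set by a *Trdn-as* KO library. With 2 libraries a genotype, and 1987531 reads in peaks in the shallowest Pol II library, changes of low peaks such as *Rora* are poorly resolved.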

Other observations

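The genes next to *Dbp* were looked at after their values had been seen, so no test is given. Of the promoter peaks of other genes within 10 kb, the strongest of 4 at *Car11*, a carbonic anhydrase related gene upstream of *Dbp*, had Pol II signal of 120 and 121 for WT, 78 and 61 for *Trdn-as* KO, and 58 and 38 for *Mettl3* KO. Its log2 fold change in *Mettl3* KO against WT was -1.34 (SE 0.28). The other tested *Car11* peak had 8 and 6, 32 and 16, and 8 and 11 in the same order (0.39, SE 0.59). Downstream, *Rpl18* had 276 and 283 for WT and 248 and 259 for *Mettl3* KO (-0.14, SE 0.19), and *Sphk2* had 467 and 453 for WT and 562 and 547 for *Mettl3* KO (0.27, SE 0.16).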
